A study of Mus musculus with 12 samples.

Results

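The genes of the BAF chromatin remodelling complex were examined in neural stem/progenitor cells (NSPCs) that lack the m6A reader Ythdf2. They were taken from the gene symbols of the count tables. The rule kept every symbol that starts with Smarc, or with Arid and a digit, together with Actl6a, Actl6b, Dpf1, Dpf2, Dpf3, Phf10, Ss18, Ss18l1, Brd7, Brd9, Pbrm1, Bcl7a, Bcl7b, Bcl7c, Bcl11a and Bcl11b. This gave 40 of 24525 genes. By their known roles 28 of them encode subunits of BAF-type complexes or genes linked to them, 4 encode other ATPases of the SNF2 family (Smarca1, Smarca5, Smarcad1 and Smarcal1), 7 encode other ARID-domain proteins of the Arid3, Arid4 and Arid5 families, and Smarca5-ps is a pseudogene. Of the 40 genes, 37 passed the filter on low counts and were tested. Actl6b, Arid3c and Smarca5-ps did not.

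BAF complexes use an ATPase, Smarca4 (Brg1) or Smarca2 (Brm), to slide or evict nucleosomes, and the other subunits set where and when they act. In the developing nervous system the complex exchanges subunits: dividing progenitors carry Actl6a (BAF53a), Phf10 (BAF45a) and Ss18, and neurons that have left the cell cycle carry Actl6b (BAF53b), Dpf1 (BAF45b), Dpf3 (BAF45c) and Ss18l1 (CREST). The loss of Actl6a in new neurons is known to depend on the microRNAs miR-9-3p (also called miR-9*) and miR-124, which act on its 3′ UTR.

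The cells were NSPCs of the C57BL/6 strain, grown from brains of E14.5 embryos as neurospheres at passage P1 with EGF and bFGF. The wild-type (WT) group and the Ythdf2-/- group had 3 input libraries each, that is, fragmented mRNA put aside before the m6A antibody step, and the 6 m6A-IP samples were not analysed here. The Ythdf2-/- allele lost its 5′ end, from the start of the gene into intron 1, through flanking LoxP sites and a Cre deleter strain, so the loss was not limited to a cell type. The study names the samples of each group biological replicates. Levels are CPM, counts scaled to the size of the library with TMM factors. RPKM, CPM per kilobase of exon, is used where the levels of 2 genes are compared. The balance of the subunit sets uses log2 CPM, with no account of length.

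The libraries held 11029827 to 13185778 counted reads. Ythdf2 itself was at 71.9, 73.3 and 91.4 CPM in the WT libraries and at 11.7, 14.7 and 11.1 CPM in the Ythdf2-/- libraries, with no overlap, which checks the genotype labels. WT replicate 3 stood apart from the other 5 libraries: its mean Spearman correlation with them was 0.900, against 0.962 to 0.970 for the others, and the first principal component, with 74.2% of the variance, set it at 91.0 against -30.6 to -6.04. The summed level of 12 proliferation genes (Mki67, Top2a, Cdk1, Ccnd1 and others) was 5040 and 4396 CPM in WT replicates 1 and 2, 164 CPM in WT replicate 3 and 3041 to 3375 CPM in the Ythdf2-/- libraries, and all 12 were lowest in WT replicate 3. The sum of 19 neuronal genes was 3778 CPM in WT replicate 3 and 2198 to 2929 CPM elsewhere, that of 12 oligodendrocyte lineage genes was 5116 CPM against 1804 to 2235 CPM, and that of 15 neural progenitor genes was 4400 CPM against 5452 to 7308 CPM. The last sum was carried by Vim, Fabp7 and Nes, which were lowest in WT replicate 3, while 9 of the 15 genes, Sox2, Pax6 and Sox9 among them, were highest there and 4 were lowest. Of the 19 neuronal genes, 11 were highest there and 2 were lowest. Of the 12 oligodendrocyte lineage genes, 8 were highest there and 3 were lowest. The sums of 12 astrocyte genes ran from 5247 to 16600 CPM, with WT replicate 3 highest, where 5 of the genes were highest and 1 was lowest. Microglial, endothelial and mesenchymal lists summed to at most 35.8 CPM in any library. Ptprc and Cldn5, which define leukocytes and endothelium, were at 0 in all 6. Other microglial and endothelial genes had a few reads, such as Cd14 at 0.512 to 5.4 CPM and Kdr at 0.644 to 1.37 CPM. Reads on 4 Y-linked genes were present in WT replicates 1 and 2 and Ythdf2-/- replicate 3 and near 0 in the others, so their presence was uneven between the genotypes. For this reason the log2 fold change of each single gene is given with and without WT replicate 3, and 13 of the 37 genes tested changed sign between these fits. WT replicates 1 and 2 were more alike than any other pair of libraries of 1 genotype. The chi-square per degree of freedom between their counts was 4.57, against 22.51 to 139.78 for the other pairs. The SE and p-values without WT replicate 3 rest on this close pair and may understate the spread between WT samples.

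The sequence of miR-9-3p and the match to its seed in Actl6a are shown first, and no sequence of miR-124 is shown. The mature mmu-miR-9-3p in RefSeq (GRCm38) has 22 bases and the same sequence at 3 loci, and its seed, bases 2 to 8, is in capitals. The longest protein-coding Actl6a transcript (GENCODE M21, GRCm38) holds the 7 bases complementary to this seed, AGCTTTA, at 1 place in its 3′ UTR of 371 bases, at bases 38 to 44 and at chr3:32726640-32726646 on the plus strand, in capitals in the second line.
mmu-miR-9-3p: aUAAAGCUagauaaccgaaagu
Actl6a 3′ UTR site: acgtctgtAGCTTTAgtaca
The 3′ UTR of Actl6b, of 196 bases, held 0 such matches. Of 20964 3′ UTRs searched on the sense strand, 2334 (11.1%) held at least 1 match, so the match is a description of the letters and not evidence of a site in use.

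The m6A consensus motif includes GGACT, and it was counted because Ythdf2 binds m6A. Actl6a and its neuronal counterpart Actl6b held 2 and 3 copies in their longest protein-coding transcripts, all 5 in the coding sequence. They are shown on the sense strand with the motif in capitals. They lie at chr3:32711932-32711936 and chr3:32720435-32720439 for Actl6a and at chr5:137554128-137554132, chr5:137555000-137555004 and chr5:137564678-137564682 for Actl6b, all on the plus strand.
Actl6a copy 1: gctggcgaGGACTgccctaag
Actl6a copy 2: acgtaaagGGACTgtctggga
Actl6b copy 1: gctggggaGGACTgccccaag
Actl6b copy 2: atgattgaGGACTgggagtgc
Actl6b copy 3: ctggcaggGGACTtcatctcc
Phf10 held 1 copy, in its 5′ UTR, and the other subunits that are exchanged held 4 to 6 copies, with 5 in Ss18, 5 in Dpf1, 4 in Dpf3 and 6 in Ss18l1. Over the 37 genes tested the median density was 0.959 GGACT per kb of transcript (quartiles 0.625 and 1.12), beside a median of 1.04 (quartiles 0.641 and 1.5) over the 12817 tested genes with a transcript. Smarcd3 was densest, at 3.46 per kb, and Smarca5 held 0 copies. Whether any copy carried m6A was not analysed here.

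No gene of the 40 passed an adjusted p of 0.05. The test was edgeR's quasi-likelihood test with Benjamini-Hochberg adjustment over 13112 genes, of which 0 (0%) passed, and all 37 genes tested had an adjusted p of 0.999. At an unadjusted p under 0.05 the count was 0 of the 37, beside 476 of the 13112 genes (3.63%). The log2 fold change (Ythdf2-/- relative to WT) was below 0 for 26 of the 37 genes, 70.3%, beside 51.9% of all genes, and its median was -0.07 beside -0.01. Without WT replicate 3 the median was 0.01 and 17 of the 37 genes, 45.9%, were below 0, beside 48.3% of all genes, so without that library the share was near the background. The fold change of each gene with and without it is plotted by role. The p-values measure the spread between these samples, and in RNA from whole cultures a smaller number of cells of a type and less RNA per cell cannot be told apart.

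**Figure D1:**
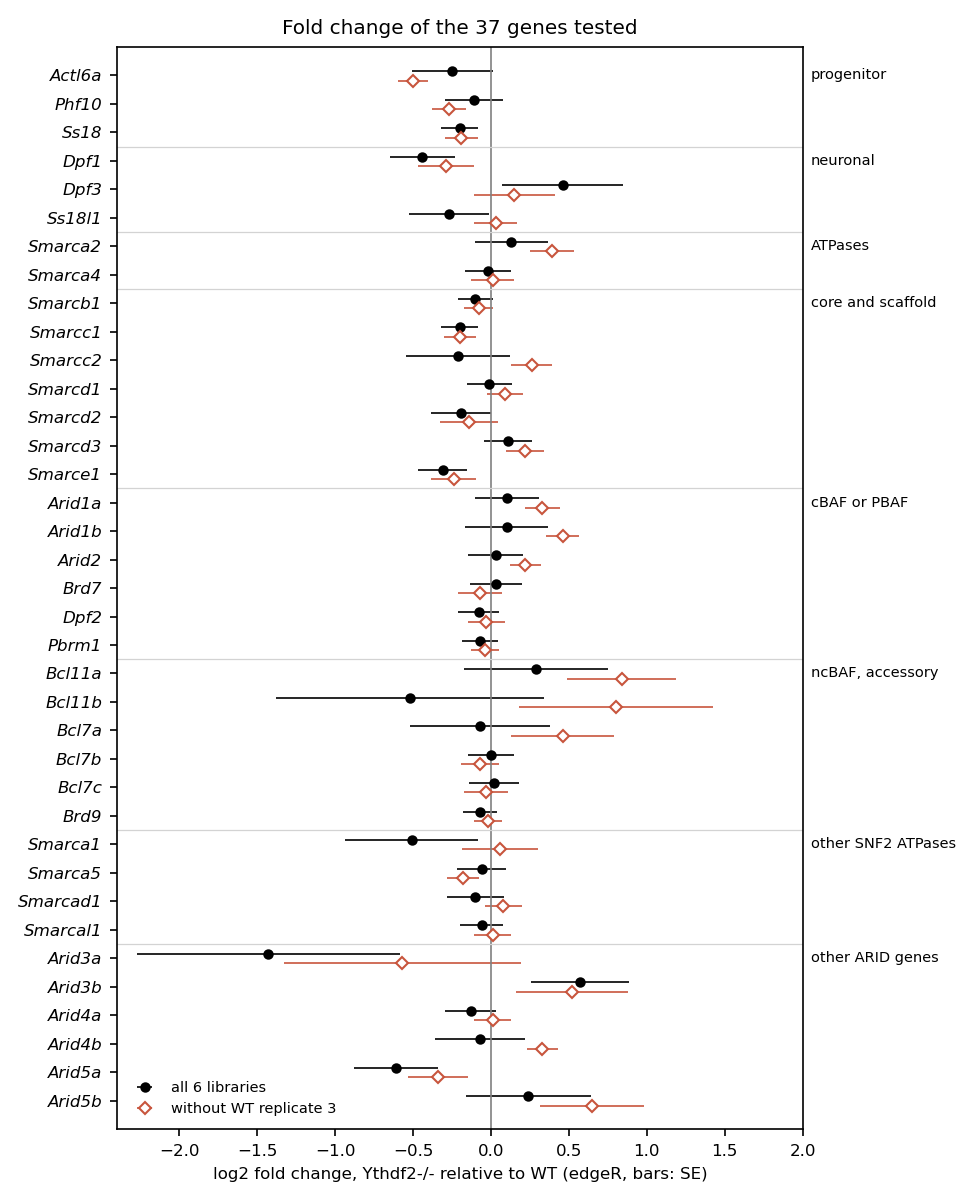
Log2 fold change (x axis, Ythdf2-/- relative to WT, edgeR) of the 37 genes tested (y axis, by role), with bars for the SE. Filled circles use all 6 libraries and open diamonds leave out WT replicate 3. Smarcc2, Bcl7a, Bcl11b and Arid4b lie below 0 with that library and above 0 without it, while Actl6a moves from -0.25 to -0.50.

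The progenitor subunits were led by Actl6a, an actin-related protein of the ATPase module that progenitors need to keep dividing. Actl6a (chromosome 3, 32708546 to 32726973, plus strand) was at 92.5, 85.1 and 46.8 CPM in the WT libraries and at 62.8, 65.5 and 60.4 CPM in the Ythdf2-/- libraries. WT replicates 1 and 2 were above all Ythdf2-/- libraries and WT replicate 3 was below them, so the groups overlapped. The log2 fold change was -0.25 (SE 0.260), and the 3 Ythdf2-/- libraries were close together at 62.9 ± 2.52 CPM (SD, n = 3). Without WT replicate 3 it was -0.50 (SE 0.0939), with an unadjusted p of 0.00165 and an adjusted p of 0.151 by edgeR's quasi-likelihood test, and Ythdf2-/- lay below WT in every library. It was -0.07 without WT replicate 1 and -0.15 without WT replicate 2. The proliferation genes were ordered in the same way, with 9 of the 12 below both WT replicates 1 and 2 in every Ythdf2-/- library and all 12 lowest in WT replicate 3. Their part in the Actl6a values was not tested.

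Phf10, a double PHD finger protein of the PBAF form, was at 77.6, 66.7 and 49.1 CPM in WT and at 62.4, 56.8 and 60.5 CPM in Ythdf2-/-. As with Actl6a, WT replicates 1 and 2 were highest and WT replicate 3 was lowest. Its log2 fold change was -0.11 (SE 0.187), and without WT replicate 3 it was -0.27 (SE 0.108, unadjusted p = 0.0458 and adjusted p = 0.293 by edgeR's quasi-likelihood test). Phf10 shares 191 exon bases with a gene on the opposite strand, and the strand setting of the counting is not given in the sources used here, so its count is uncertain to that extent. Ss18, a subunit with coactivator activity, was at 125, 109 and 120 CPM in WT and at 98.8, 110 and 98.7 CPM in Ythdf2-/-. Ythdf2-/- replicate 2 was above WT replicate 2, so the groups overlapped at that 1 place. The log2 fold change of Ss18 was -0.20 (SE 0.118) and -0.19 (SE 0.105) without WT replicate 3, which for this gene was not apart from the other WT libraries. Its gene lies on chromosome 18 and no sequence of it is shown.

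**Figure D2:**
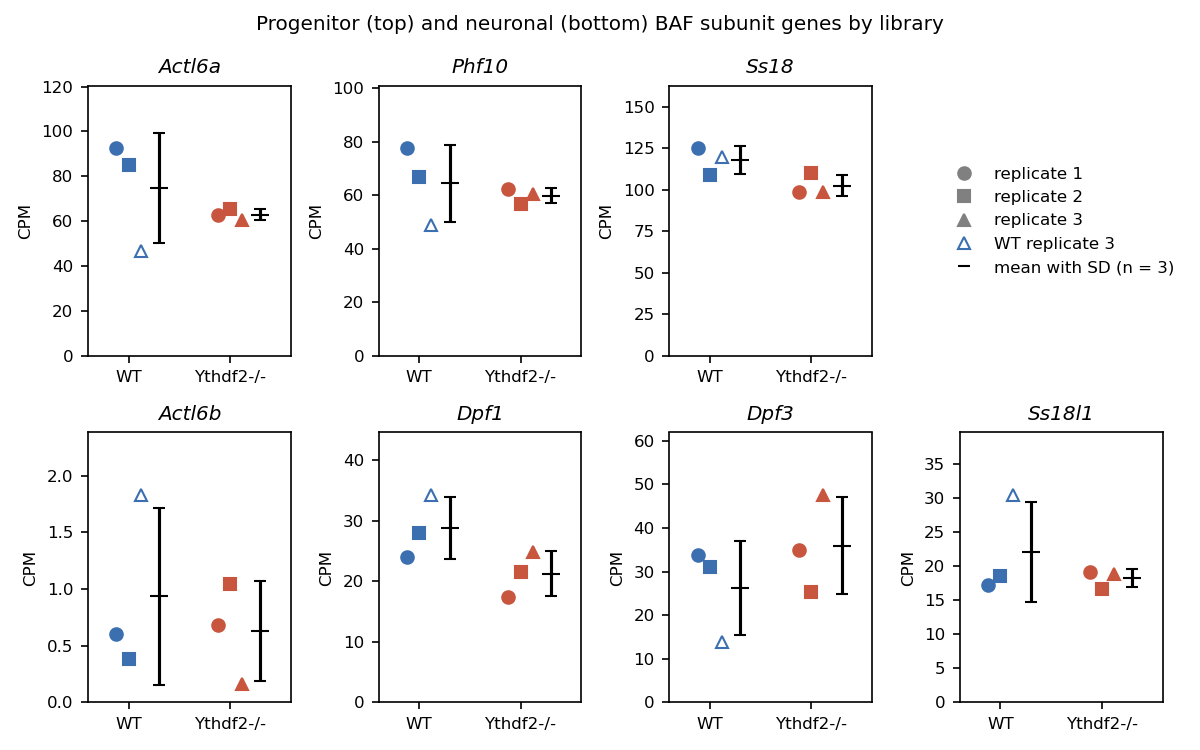
CPM (y axis, from 0) of the progenitor subunit genes (top) and neuronal subunit genes (bottom) in each WT and Ythdf2-/- library (x axis). Symbols mark the replicate number, the open triangle is WT replicate 3 and the bar is the mean with its SD (n = 3). For Actl6a and Phf10 the open triangle lies under all other libraries, and for Actl6b, Dpf1 and Ss18l1 it lies over them.

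Among the neuronal subunits, Actl6b was at the limit of detection. It had 7, 5 and 20 reads in the WT libraries and 8, 14 and 2 reads in the Ythdf2-/- libraries, which is 0.161 to 1.83 CPM. The highest library was WT replicate 3 and the lowest was Ythdf2-/- replicate 3, and with these counts no difference between the genotypes was detectable. Dpf1, a PHD finger protein of neuronal BAF, was at 24.1, 28 and 34.3 CPM in WT and at 17.4, 21.5 and 24.9 CPM in Ythdf2-/-. The groups overlapped only in that Ythdf2-/- replicate 3 was above WT replicate 1. The log2 fold change of Dpf1 was -0.44 (SE 0.208), and -0.29 (SE 0.181) without WT replicate 3, the highest library.

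Dpf3, which binds modified histone tails, went the other way in WT replicate 3. It was at 33.7, 31.0 and 13.8 CPM in WT and at 34.9, 25.4 and 47.6 CPM in Ythdf2-/-, with WT replicate 3 lowest and Ythdf2-/- replicate 3 highest. The log2 fold change was 0.46 (SE 0.389), and 0.15 (SE 0.259) without WT replicate 3. Ss18l1, a calcium-responsive coactivator, was at 17.3, 18.5 and 30.5 CPM in WT and at 19.2, 16.7 and 18.9 CPM in Ythdf2-/-. Apart from WT replicate 3, its 5 libraries lay between 16.7 and 19.2 CPM. Its log2 fold change was -0.27 (SE 0.255) with that library and 0.03 (SE 0.139) without it. The 4 neuronal subunits thus did not share a direction in WT replicate 3: Actl6b, Dpf1 and Ss18l1 were highest there and Dpf3 was lowest. Of the 19 neuronal genes, whose sum was highest there, 11 were highest and 2 were lowest.

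The balance of the subunit sets was taken as the mean log2 CPM of Actl6a, Phf10 and Ss18 minus that of Actl6b, Dpf1, Dpf3 and Ss18l1. It was 3.24, 3.14 and 2.32 in WT replicates 1, 2 and 3 and 2.87, 2.85 and 2.94 in the Ythdf2-/- libraries. All 3 Ythdf2-/- libraries lay between WT replicate 3 and the other 2 WT libraries, and their SD was 0.0477 (n = 3) beside 0.506 for WT (n = 3). The difference between the genotype means was -0.01. It was -0.30 without WT replicate 3, 0.16 without WT replicate 1 and 0.11 without WT replicate 2. The value of -0.30 came from the progenitor side, where the mean was 6.51 in WT replicates 1 and 2 and 6.19 in Ythdf2-/-. The neuronal mean was 3.32 and 3.30. These sums over chosen genes are given with no test.

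The pairs within each exchange were set side by side per length, as log2 ratios of RPKM with 0.1 added. For Actl6a over Actl6b the ratio was 6.61, 6.98 and 4.23 in WT and 5.90, 5.45 and 7.25 in Ythdf2-/-. The progenitor form was thus far above the neuronal form in every library, and least so in WT replicate 3. For Ss18 over Ss18l1 the ratio was 3.32, 3.03 and 2.46 in WT and 2.84, 3.19 and 2.85 in Ythdf2-/-, again lowest in WT replicate 3. For Phf10 over the sum of Dpf1 and Dpf3 it was below 0 in all 6 libraries, from -0.77 to -0.14. That sign depends on the length given to Phf10: its mean level was 13.9 RPKM over the 4481 bases of all its annotated exons and 37.4 RPKM over the shorter length in the deposited gene tables.

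The microRNA host genes Mir9-3hg, Mir124-2hg and Mir124a-1hg were looked at after their values were seen. The hosts of the other miR-9-3p loci were not looked at. Mir9-3hg was at 42.4, 37.4 and 45.7 CPM in WT and at 44.9, 76.9 and 32.6 CPM in Ythdf2-/-, with both extremes in Ythdf2-/-. Mir124-2hg was at 4 to 6.82 CPM in all libraries and Mir124a-1hg had 3 to 14 reads. WT replicate 3 lay within the range of the other libraries for each of these host transcripts, whose level need not follow that of the mature microRNA. The part of the microRNAs in the Actl6a values was not tested.

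Of the ATPases, Smarca4 was at 356, 340 and 371 CPM in WT and at 308, 399 and 347 CPM in Ythdf2-/-. The lowest and the highest library were both Ythdf2-/-, and the log2 fold change was -0.02 (SE 0.15), and 0.01 (SE 0.138) without WT replicate 3. Smarca2, the alternative ATPase, was at 115, 128 and 194 CPM in WT and at 172, 133 and 171 CPM in Ythdf2-/-. WT replicate 3 was highest, and WT replicates 1 and 2 were below every Ythdf2-/- library. Its log2 fold change was 0.13 (SE 0.234), and without WT replicate 3 it was 0.39 (SE 0.143, unadjusted p = 0.0343 and adjusted p = 0.266 by edgeR's quasi-likelihood test). Smarca4 made up 75%, 72% and 64.9% of the summed RPKM of both ATPases in WT and 63.3%, 74.4% and 66.2% in Ythdf2-/-, so it was the larger part in every library and the groups overlapped.

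The 7 core and scaffold genes had log2 fold changes of -0.31 to 0.11, of which 6 were below 0, beside 51.9% of all genes. Only 4 of the 7 were below 0 without WT replicate 3, beside 48.3%. Smarcb1 (Snf5), the core subunit that grips the nucleosome, was at 118, 118 and 124 CPM in WT and at 116, 104 and 115 CPM in Ythdf2-/-. The groups did not overlap, but they came close, and the log2 fold change was -0.10 (SE 0.111, adjusted p = 0.999 by edgeR's quasi-likelihood test), or -0.08 (SE 0.0933) without WT replicate 3. Smarcc1 (BAF155), a scaffold subunit, was at 204, 182 and 195 CPM in WT and at 165, 161 and 179 CPM in Ythdf2-/-, again with no overlap. Its log2 fold change was -0.20 with and without WT replicate 3 (SE 0.119 and 0.104). Smarce1 (BAF57), a DNA-binding HMG-box subunit, had a log2 fold change of -0.31 (SE 0.156), and of -0.24 (SE 0.142) without WT replicate 3. It was at 181, 175 and 204 CPM in WT and 139, 178 and 135 CPM in Ythdf2-/-, where replicate 2 lay within the WT range.

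Smarcc2 (BAF170), the paralogue of Smarcc1, was at 187, 189 and 402 CPM in WT and at 221, 256 and 195 CPM in Ythdf2-/-. WT replicate 3 was far above all others, and the remaining WT libraries were below all Ythdf2-/- libraries. The log2 fold change was -0.21 (SE 0.333) with it and 0.26 (SE 0.134) without it. Smarcc1 was thus 51.2%, 48.0% and 31.8% of the summed RPKM of both paralogues in WT and 41.6%, 37.6% and 46.8% in Ythdf2-/-. Among the Smarcd genes, whose products link transcription factors to the complex, Smarcd1 was 49.5% to 50.6% of the sum in WT and 48.1% to 49.0% in Ythdf2-/-, which did not overlap but differed by little. Smarcd1 and Smarcd3 share 339 and 642 exon bases with genes on the opposite strand, which makes these shares uncertain. The paralogue shares are plotted by library.

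**Figure D3:**
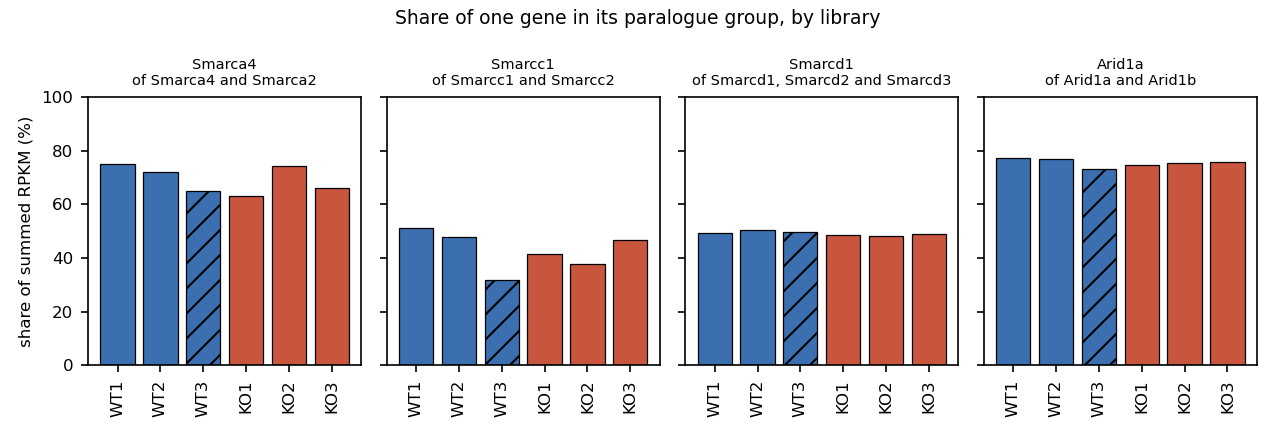
Share of the summed RPKM (y axis, percent, from 0) that 1 gene takes in its paralogue group, in each library (x axis; blue WT, red Ythdf2-/-, hatched WT replicate 3). The Smarcc1 share is lowest in WT replicate 3, at 31.8%, and the Smarcd1 and Arid1a shares stay within 48.1% to 50.6% and 73.3% to 77.2%.

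The 6 genes of the cBAF or PBAF forms had log2 fold changes of -0.08 to 0.10. Arid1a (BAF250a), which defines canonical BAF, was at 144, 150 and 223 CPM in WT and at 166, 201 and 187 CPM in Ythdf2-/-. Its paralogue Arid1b was at 53.8, 56.9 and 103 CPM in WT and at 70.7, 82.0 and 76.0 CPM in Ythdf2-/-. For both genes WT replicate 3 was highest and WT replicates 1 and 2 were below every Ythdf2-/- library. Without WT replicate 3 the log2 fold change of Arid1a was 0.33 (SE 0.112, unadjusted p = 0.0237 and adjusted p = 0.242 by edgeR's quasi-likelihood test). That of Arid1b was then 0.46 (SE 0.105, unadjusted p = 0.00419 and adjusted p = 0.175 by edgeR's quasi-likelihood test), where it was 0.10 for each with all libraries. Arid1a kept 73.3% to 77.2% of the summed RPKM of both. The PBAF genes Pbrm1, which binds acetylated histones, and Brd7 had log2 fold changes of -0.07 (SE 0.113) and 0.03 (SE 0.167). These were -0.04 (SE 0.0895) and -0.07 (SE 0.139) without WT replicate 3. Pbrm1, at 189 to 209 CPM in all libraries, had the smallest SD across libraries of the 40 genes (0.0604 in log2 CPM).

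The 6 ncBAF and accessory genes ranged from steady to strongly variable between libraries. Brd9, the bromodomain protein that defines ncBAF, was at 73.0 to 84.8 CPM and its log2 fold change was -0.07 (SE 0.110), or -0.02 (SE 0.0890) without WT replicate 3. Bcl7b and Bcl7c had log2 fold changes of 0.00 (SE 0.146) and 0.02 (SE 0.162), which were -0.07 (SE 0.124) and -0.03 (SE 0.142) without WT replicate 3. Bcl7a, of the same family, was at 58.5, 65.2 and 145 CPM in WT and at 76.1, 124 and 55.4 CPM in Ythdf2-/-, with WT replicate 3 and Ythdf2-/- replicate 2 high and the other 4 libraries between 55.4 and 76.1 CPM. For Bcl7a the log2 fold change was -0.07 (SE 0.447) with WT replicate 3 and 0.46 (SE 0.329) without it. The zinc finger gene Bcl11b was at 2.40, 2.06 and 12.4 CPM in WT and at 2.73, 7.11 and 1.77 CPM in Ythdf2-/-, with the same 2 libraries high. Its log2 fold change was -0.52 (SE 0.860) with WT replicate 3 and 0.80 (SE 0.623) without it. Bcl11a, at 2.29 to 5.49 CPM, had log2 fold changes of 0.29 (SE 0.461) with WT replicate 3 and 0.84 (SE 0.350) without it, and it shares 273 exon bases with a gene on the opposite strand.

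With all 6 libraries the genes of largest fold change were outside BAF, among those that the symbol rule brought in. Without WT replicate 3 the largest were Bcl11a and Bcl11b, given above. Arid3a, a DNA-binding ARID protein known from B cells, had the largest with all libraries, -1.43 (SE 0.843), and -0.57 (SE 0.760) without WT replicate 3. It had only 16, 7 and 36 reads in WT and 8, 14 and 2 in Ythdf2-/-, and the groups overlapped. Arid5a, an RNA-binding ARID protein, was at 13.4, 15.3 and 23.3 CPM in WT and at 9.55, 13.2 and 11.3 CPM in Ythdf2-/-. The highest Ythdf2-/- library was just under the lowest WT library, so the groups did not overlap, and the log2 fold change was -0.61 (SE 0.27), or -0.34 (SE 0.192) without WT replicate 3. Arid3b was at 0.856, 0.992 and 0.824 CPM in WT and at 1.36, 1.18 and 1.45 CPM in Ythdf2-/-, with no overlap and a log2 fold change of 0.57 (SE 0.313), or 0.52 (SE 0.359) without WT replicate 3, at levels near 1 CPM. Arid4b, of the Sin3 corepressor complex, was at 77.7, 74.9 and 150 CPM in WT and at 94.9, 103 and 89.8 CPM in Ythdf2-/-, and its log2 fold change went from -0.07 (SE 0.290) to 0.33 (SE 0.0993) without WT replicate 3. The ISWI ATPases Smarca5 and Smarca1 had log2 fold changes of -0.06 (SE 0.158) and -0.51 (SE 0.425). That of Smarca5 was -0.18 (SE 0.102) and that of Smarca1 turned to 0.06 (SE 0.243) without WT replicate 3. Smarca1 was at 26.4 CPM in WT replicate 3 and at 8.61 to 14.1 CPM elsewhere. The pseudogene Smarca5-ps, at 0.0856 to 0.597 CPM, can share reads with Smarca5, so its few reads are uncertain.

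In all, 4 of the 37 genes tested (10.8%) had groups that did not overlap: Smarcb1, Smarcc1 and Arid5a were lower in every Ythdf2-/- library and Arid3b was higher. The shares over all genes tested were 10.2% in all, 4.92% for lower and 5.24% for higher, so the count of 4 was near the background. Without WT replicate 3, 15 of the 37 (40.5%) did not overlap, beside 38.9% of all genes. Of these 6 were lower in Ythdf2-/- (Actl6a, Phf10, Smarca5, Smarcb1, Smarcc1 and Arid5a; 16.2%), beside 20.1% of all genes, and 9 were higher (Arid1a, Arid1b, Arid2, Arid3b, Arid4b, Bcl11a, Smarca2, Smarcc2 and Smarcd3; 24.3%), beside 18.8%. At an unadjusted p under 0.05 without that library the count was 6 of 37 (16.2%), beside 16.6% of all genes, so again near the background. Actl6a and Phf10 were the 2 with lower levels in Ythdf2-/- (background 8.58%), and Arid1a, Arid1b, Arid4b and Smarca2 were the 4 with higher levels (background 8.03%). None of the 37 passed an adjusted p of 0.05 in that edgeR fit, beside 2 of 13283 genes (0.0151%).

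WT replicate 3 was above all 5 other libraries for 24 of the 37 genes (64.9%), beside 33.8% of all genes tested, and below all 5 for 8 (21.6%), beside 34.4%. The 8 lowest were Actl6a, Phf10, Dpf3, Brd7, Bcl7b, Bcl7c, Smarca5 and Arid3b. Relative to the mean of WT replicates 1 and 2, on the log2 CPM scale, it differed by -0.92 for Actl6a, by -0.55 for Phf10 and by -1.22 for Dpf3. The differences were 1.10 for Smarcc2, 1.23 for Bcl7a, 0.89 for Arid1b, 0.68 for Smarca2 and 0.09 for Smarca4. The marker sums that set this library apart are given above, and their part in these values was not tested. Over all 6 libraries the median SD of log2 CPM was 0.222 for the 37 genes, beside 0.304 for all genes tested. Among genes with a mean of at least 50 CPM it was 0.190 for 22 of the 37 genes and 0.232 for 4968 genes.

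**Figure D4:**
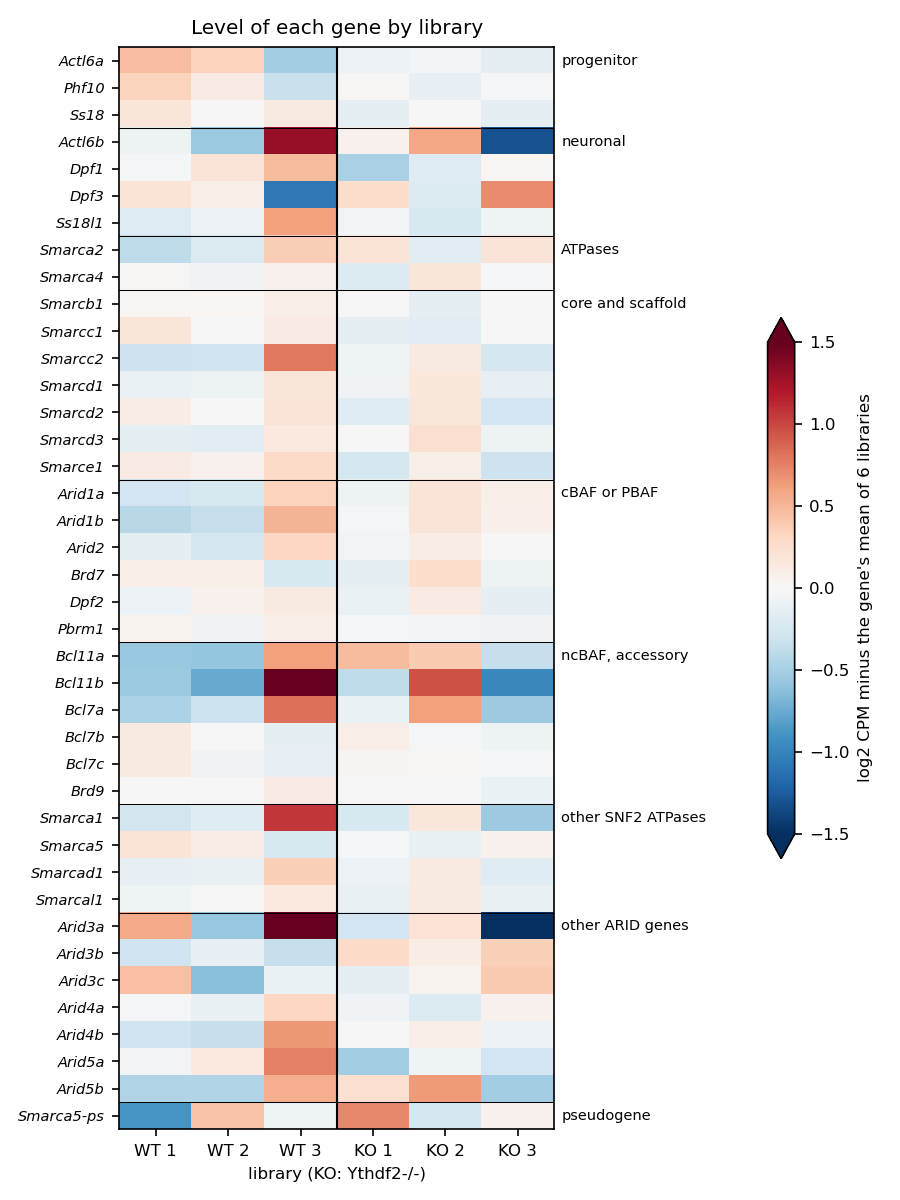
Level of each of the 40 genes (rows, by role) in each library (columns), as log2 CPM minus the mean of the gene over the 6 libraries, with colours capped at 1.5 on either side. The WT 3 column is red for most subunits, among them Smarcc2, Bcl7a and Arid1b, and blue for Actl6a, Phf10 and Dpf3.

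Which genes had an unadjusted p under 0.05 depended on the fit. DESeq2 gave 3 of the 40 (Dpf1, Smarce1 and Arid5a, all lower in Ythdf2-/-), beside 5.56% of all genes, and voom with sample quality weights, which gave WT replicate 3 a weight of 0.0957 against 0.477 to 4.09, gave 10 of 37, beside 27.9%. Those 10 were Actl6a, Dpf1, Smarce1 and Arid5a, lower, and Smarca2, Arid1a, Arid1b, Arid4b, Arid5b and Bcl11a, higher. A term for the presence of Y-linked reads gave 5 (Dpf3, Smarce1, Smarca1, Arid3a and Arid5a), beside 11%. With the term Actl6a was at -0.05 (SE 0.249) and Dpf3 at 0.83 on the log2 scale. Leaving out WT replicate 1 gave 1 gene (Arid5a), beside 2.82%, and leaving out Ythdf2-/- replicate 2 gave 1 (Smarce1), beside 4.14%. None of the genes passed an adjusted p of 0.05 in the DESeq2, voom or Y-term fit, where 0.523%, 2.35% and 0.0991% of all genes did, and the lowest adjusted p of any was 0.0515, for Actl6a by voom.

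The level per length set the order of the 40 genes, and 23 of them had a mean of at least 10 RPKM. Over the length of all annotated exons, Smarcb1 (69.9 RPKM), Smarce1 (57.7 RPKM), Smarca4 (54.6 RPKM), Smarca5 (48.5 RPKM) and Smarcd1 (45.4 RPKM) were highest. In WT (SD, n = 3) Smarcb1 was at 72.4 ± 1.97, Smarce1 at 63.9 ± 5.18 and Smarca4 at 54.9 ± 2.41 RPKM, and these 3 were apart from each other by more than either SD. In Ythdf2-/- Smarce1, at 51.5 ± 8.16 RPKM, was not above Smarca4, at 54.3 ± 7.11 RPKM, so their order held in WT alone. Smarca5, at 49.5 ± 7.78 RPKM, and Smarcd1, at 45.5 ± 5.10 RPKM in WT, did not differ from their neighbours in this order beyond the larger SD. Of the progenitor subunits, Ss18 (35.7 RPKM) and Actl6a (35.0 RPKM) were at ranks 9 and 10, and Phf10 (13.9 RPKM) was at rank 22, next to neuronal Dpf1 at rank 23, a place that depends on the length given to Phf10. The neuronal subunits were at ranks 23 to 36, with Dpf1 at 10.5, Dpf3 at 8.24, Ss18l1 at 4.62 and Actl6b at 0.5 RPKM. Bcl11b, Bcl11a, Actl6b, Arid3b, Arid3a, Arid3c and Smarca5-ps were all below 1 RPKM. With the gene length that the authors deposited, 24 genes reached 10 RPKM. Phf10 then went from 13.9 to 37.4 RPKM, beside Ss18 at 38.8 and Actl6a at 35.0 RPKM and above Dpf1 at 11 RPKM. Brd7 went from 38.2 to 69.1 RPKM and Bcl7c from 2.30 to 15.7 RPKM. Brd7 was then next to Smarcb1, at 70.8 RPKM, and Smarcc2, at 51.3 RPKM, was above Smarca5 and Smarcd1, so the order at the top depends on the length too.

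**Figure D5:**
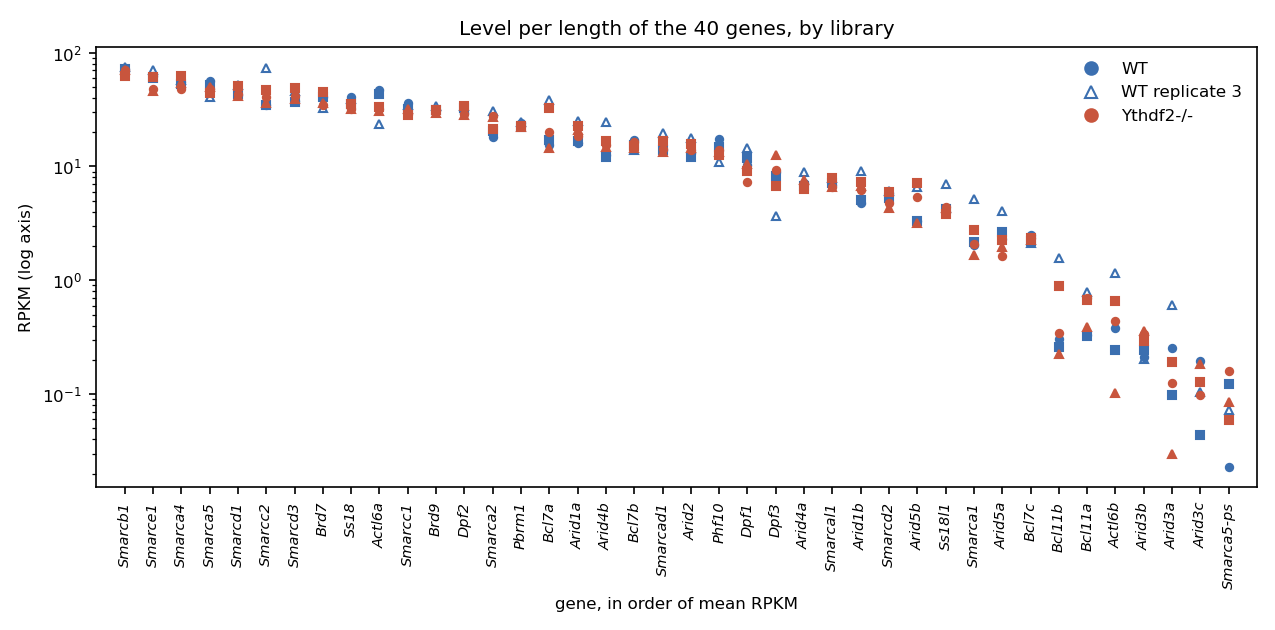
RPKM (y axis, log scale) of the 40 genes in order of their mean (x axis) in each library, with WT in blue, WT replicate 3 as open triangles and Ythdf2-/- in red. Smarcb1 lies highest, at 69.9 RPKM on average, and Actl6b, at 0.5 RPKM, lies far below its progenitor counterpart Actl6a, at 35.0 RPKM.

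With all 6 libraries the other remodelling complexes gave the same count of 0, but not without WT replicate 3. Of 70 genes of the ISWI, CHD and NuRD, and INO80, SRCAP and TIP60 groups, the REST pathway and the ncBAF scaffold, 68 were in the tables and tested, and 0 had an unadjusted p under 0.05 by edgeR, with a median log2 fold change of -0.02. Without WT replicate 3 this was 23 of the 68, of which 13 were higher and 10 lower in Ythdf2-/-. That is a larger share than the 16.6% of all genes and the 16.2% of the 37 genes given above. Rest, the repressor that holds neuronal genes and miR-9 and miR-124 silent in progenitors, was at 17.6, 18.9 and 28 CPM in WT and at 22.6, 23.9 and 26.1 CPM in Ythdf2-/-. Its log2 fold change was 0.17 (SE 0.217), and 0.41 without WT replicate 3 (unadjusted p = 0.0205 by edgeR).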

How the data were processed

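The authors fragmented mRNA, prepared libraries with a stranded kit and aligned the reads to mm10. The submitters' processing notes also name Bowtie2 2.2.9, RSEM 1.2.15 and featureCounts. The deposited counts are raw whole numbers of reads per gene symbol with no normalization. The authors also deposited expected counts in a gene table for each library, which summed to 1.97% to 2.40% of the raw counts and were not tested, and only the length column of these tables was used, for RPKM.

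Groups and replicate numbers came from the sample titles. The 40 genes, their roles and the gene lists were chosen with earlier results of these data known. The quasi-likelihood test of edgeR 4.0.16 (R 4.3.3) was run on the 13112 genes that filterByExpr kept, with TMM factors and a robust dispersion fit. The model held genotype alone, and p-values were adjusted over all genes by Benjamini and Hochberg's method. DESeq2 1.42.0, voom with sample quality weights (limma 3.58.1), DESeq2 size factors, other filters, a replicate block, a Y-linked term (a sum above 3 over 4 genes) and leaving out each library were alternatives. An exact permutation test of 1 gene could not go below 0.1. Log2 CPM used a prior count of 2, and RPKM the exons of curated RefSeq transcripts of GRCm38.p6 (24378 genes). Figures and summaries used Python 3.11.15 with pandas 2.3.3. Totals of 11029827 to 13185778 reads limit Actl6b, Arid3c and Smarca5-ps.

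Genes named one by one were the progenitor and neuronal subunits, the ATPases, those with an unadjusted p under 0.05, the 3 largest fold changes and those whose groups did not overlap. Other genes were named by role and level, or after their values were seen.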

Additional observations from a re-analysis of the deposited data

How the results depend on the processing

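Over the 13 alternatives, 0 of the 40 genes passed an adjusted p of 0.05. The count at an unadjusted p under 0.05, which was 0, became 3 with DESeq2, 5 with the Y-linked term and 10 with voom and sample quality weights, and 0 to 6 on leaving out single libraries, with 6 without WT replicate 3. For the other remodelling genes it was 1 with the Y-linked term and 23 with voom, and 0 to 23 with 1 library left out. Non-overlapping groups ran from 5 to 15 with 1 library left out: 15 without WT replicate 3, 10 without Ythdf2-/- replicate 2 (22.1% of all genes) and 8 without WT replicate 2 (14.5%), where fewer samples have to be apart. The median log2 fold change ran from -0.10 to 0.01, and the difference in subunit balance from -0.30 to 0.16.

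Of 167 values of the 13 tested genes that were named by rule, 160 kept their direction and 7 reversed. Over all 37 genes tested, 13 reversed without WT replicate 3, among them Smarcc2, Bcl7a, Bcl11b, Arid4b and Smarca1. Phf10 was at 0.01 with the Y-linked term and ran from -0.27 to 0.05 with 1 library left out. Ss18l1 was at 0.05 with voom and ran from -0.42 to 0.03. Smarca2 was at 0.43 with voom and ran from -0.02 to 0.39 with 1 library left out, where Smarca4 ran from -0.11 to 0.08. Actl6a, Dpf1, Dpf3, Arid3a and Arid5a kept the same sign in every alternative. With 1 library left out, Actl6a ran from -0.50 to -0.07, Dpf1 from -0.57 to -0.29 and Dpf3 from 0.15 to 0.68. Arid3a then ran from -2 to -0.57 and Arid5a from -0.77 to -0.34. Beyond these ranges, the Y-linked term gave Actl6a -0.05, Dpf3 0.83 and Arid3a -2.07, and voom gave Arid3a -0.49. The cause was not tested.

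Whether the replicate numbers pair the samples could not be told from the counts. The deviations of same-numbered libraries from their group means had correlations of -0.248, -0.244 and -0.394. WT replicate 3 stood apart and shifts the WT mean, so the deviations of the WT libraries are not free of each other. With the replicate block the count at an unadjusted p under 0.05 was 0, the median log2 fold change was -0.07 and that of Actl6a was -0.19.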
